A study of Mus musculus with 3 samples.

Results

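The transcripts of 69 homeobox transcription factor genes were examined among the 15311 genes of an RNA-seq table of mouse embryonic stem (ES) cells. They were chosen by symbol and not by level: Hox, Lhx, Pax, Nkx, Irx, Dlx, Msx, Meis, Pbx, Gbx, Emx, Alx, Pitx, Bar, Cdx, Gsx and sine oculis (Six-numbered) genes and Esx1, with Lhx1 left out. The symbols Vax and Vsx were part of the rule and gave no member. The rule matched 121 protein-coding symbols of the GENCODE M21 annotation, and the 52 others were not analysed here. The libraries were 1 of K3R3 cells and 2 of wild-type (WT) cells. K3R3 cells expressed the histone variant H2A.Z with the C-terminal lysines K119, K120 and K123 changed to arginine, fused to yellow fluorescent protein (YFP). WT cells expressed the unmutated H2A.Z fused to YFP. In both, a CMV promoter under an rtTA system drove the lentiviral transgene, doxycycline was given at 1 µg/ml, the YFP-bearing cells were taken by flow sorting, and endogenous H2A.Z was targeted by a hairpin directed to its 3′ UTR. The strain label reads V6.5 (129SvJaexC57BL/6), whereas the treatment protocol places the transgenes in KH2 ES cells. Whether separate cultures gave the WT libraries is not stated, so the p-values reflect only the spread of these samples, which may be technical.

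Homeobox genes encode factors that bind DNA through a homeodomain and assign position and cell identity in the embryo. Hox genes lie in 4 clusters and are switched on in order along the head-to-tail axis. Cdx factors activate them, Pbx and Meis proteins bind DNA together with them, and retinoic acid is a classical inducer. In ES cells most of these genes are close to silent, with promoters that carry an activating mark and a Polycomb mark at once, a state called bivalent, and H2A.Z is enriched at such promoters. By its title, the series asks how mono-ubiquitylation of H2A.Z.1 and the protein BRD2 bear on this poised state. The lysines replaced in K3R3 are those that can carry ubiquitin.

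The table held 24718223 counts for K3R3 and 21614693 and 25426228 for WT replicates 1 and 2. The smallest count was 1 in each library. H2afz, the targeted gene, stood at 222 CPM in K3R3 and at 219 and 232 CPM in WT replicates 1 and 2. CPM is the count scaled to library size after TMM normalisation. Both groups carried hairpin and transgene, and reads of the transgene can count toward H2afz, so its level checks no label. The 10 ES cell markers listed were all detected, with a summed level of 4587 CPM in K3R3 against 6565 and 5657 CPM in WT. Of these markers Sox2, Dppa5a and Klf4 fell and 0 rose, beside 0.542% of all genes called lower and 2.02% called higher in the test described below. Dppa5a had 1016 CPM in K3R3 and 1862 and 1189 CPM in WT replicates 1 and 2. Its WT libraries thus differed more from each other than K3R3 did from WT replicate 2. The part of the ES cell markers in the homeobox values was not tested.

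Of the 69 homeobox genes, 61 (88.4%) carried the code for bivalent in the authors' class column, against 12.9% of all genes. The active code was carried by 7 members, among them Pbx2, Pbx4, Meis3, Six4, Six5 and Nkx6-3. Hoxb3 had the code -1, which the header does not explain. Levels per length were low. The median member had a mean of 0.289 RPKM over the 3 libraries (RPKM, reads scaled by gene length and library size), against 0.476 RPKM for bivalent genes, 6.28 RPKM for active genes and 3.59 RPKM for all genes. A mean of at least 1 RPKM was reached by 14 members (20.3%). A count of 3 or fewer was seen for 17 members in at least 1 WT library and for 0 members in K3R3. Among bivalent genes these numbers were 232 and 25, and among all genes 950 and 305. They set 2 WT libraries against 1 of K3R3.

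The highest members per length were the TALE cofactor Pbx2, the sine oculis factor Six4, the midbrain-hindbrain boundary factor Gbx2 and Pbx3. Pbx2 had 9.41 RPKM in K3R3 and 10.7 and 11.7 RPKM in WT replicates 1 and 2. Six4 had 7.43 RPKM in K3R3 and 6.47 and 7.37 RPKM in WT. Gbx2 had 7.25 RPKM in K3R3 and 5.70 and 7.95 RPKM in WT. For these members the libraries lay close together on the RPKM scale. Pbx3 had a mean of 6.17 RPKM, and among those that followed were Pax6, Esx1, Hoxb9 and Irx2, the last with a mean of 2.09 RPKM. Together the 10 highest genes held 68.7% of all member counts in K3R3 and 79.5% and 77.0% in WT replicates 1 and 2, so the remaining members made up a larger share in K3R3.

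**Figure D1:**
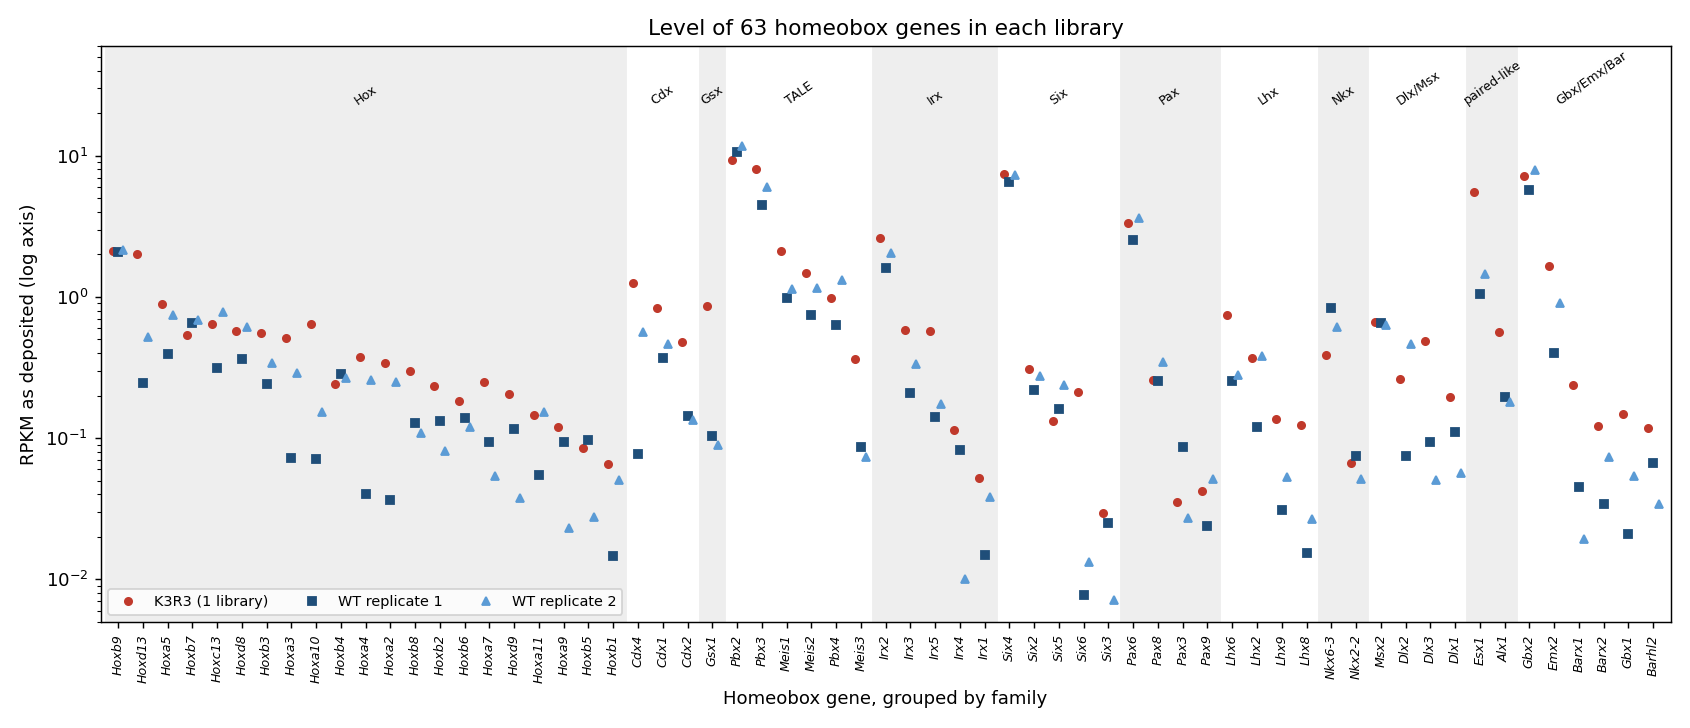
Deposited RPKM (log axis) of 63 homeobox genes, grouped by family, with 1 point for K3R3 and 1 for each WT replicate. The values run over more than 3 orders of magnitude, from 0.00715 RPKM for Six3 in WT replicate 2 to 11.7 RPKM for Pbx2 in the same library, and the 3 libraries lie closest together among the most abundant genes.

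In K3R3, 3 homeobox genes rose and 0 fell, of 46 that passed the filter (at least 0.5 CPM on average). The 3 were Gsx1, a ParaHox gene of the neural tube, Hoxd13, a posterior Hox gene of digits and genital tubercle, and Esx1, an X-linked gene of placenta and male germ line. All 3 were classed as bivalent. They amount to 6.52% of the members tested, beside 2.02% of all genes called higher and 10.5% of bivalent genes called higher. Taken within the class, 3 of 39 bivalent members rose (7.69%), so the share lay near that of the class and is not a result about homeobox genes. Genes called lower made up 0.542% of all genes and 0.539% of bivalent genes. Calls were made at 0.05 after Benjamini-Hochberg adjustment of edgeR's quasi-likelihood p-values. In that test the spread came from the 2 WT libraries, pooled into a trend over all genes. A gene whose own WT libraries lay far apart was therefore not given a wider spread. K3R3, with its single library, had to be taken to vary as the WT libraries do.

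The sequence just before the start of these 3 genes is shown because they carry the calls. Each run is the 30 bases directly upstream of the RefSeq start on GRCm38.p6, written 5′ to 3′ on the gene's strand, with CpG dinucleotides in capitals. The counts themselves were made on build mm9.
Gsx1, chr5:147188666-147188695, plus strand: gcCGgCGtctttcagcaccactagCGctgg
Hoxd13, chr2:74668195-74668224, plus strand: gggaaagggCGggagCGagCGCGcCGCGga
Esx1, chrX:137120327-137120356, minus strand: gtagggagctcaaagtcCGacCGgcacttt
Hoxd13 held 6 CpG dinucleotides in this window, Gsx1 held 3 and Esx1 held 2. RefSeq promoter entries matched 45 of the 69 members (65.2%), too few to compare promoter composition over the family, so that check is void.

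Esx1 had 325 counts in K3R3 and 55 and 88 in WT replicates 1 and 2, or 12.5 CPM against 2.62 and 3.55 CPM. The K3R3 value lay above both WT values, and the gap to them exceeded the gap between them. The fitted log2 change was 2.01 (SE 0.40; adjusted p = 0.000144 by edgeR), and the difference was 2.24 and 1.80 against each WT library alone. Among the members called, DESeq2 kept Esx1 alone (adjusted p = 0.0465). Esx1 is a trophoblast gene. Of 9 trophectoderm markers tested 0 were called, beside 2.02% of all genes and 10.5% of bivalent genes called higher. Their summed level was 120.9 CPM in K3R3 against 175.9 and 99.7 CPM in WT, between the WT values. Krt18 alone had 32.9 CPM in K3R3 and 44.6 and 8.78 CPM in WT replicates 1 and 2. The part of trophoblast cells in the Esx1 value was not tested.

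Hoxd13 had 183 counts in K3R3 and 20 and 49 in WT replicates 1 and 2, or 7.03 CPM against 0.951 and 1.97 CPM. K3R3 was again the highest library, while the WT libraries themselves differed by 1.02 log2 units. The fitted log2 change was 2.25 (SE 0.49; adjusted p = 0.000824 by edgeR, 0.216 by DESeq2). Against each WT library alone the difference was 2.83 and 1.81.

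Gsx1 had 56 counts in K3R3 and 6 in each WT library, or 2.15 CPM against 0.285 and 0.242 CPM. The fitted log2 change was 3.01 (SE 0.84; adjusted p = 0.0203 by edgeR, 0.616 by DESeq2). Gsx1 passed the filter through its K3R3 value, so its low WT level is no result. Of the 10 neural progenitor markers listed 8 were in the table and 6 tested. Zic1 rose (log2 3.58, SE 1.03; adjusted p = 0.0265 by edgeR), with 36 counts in K3R3 and 4 and 1 in WT. Nes had 65.0 CPM in K3R3 and 38.6 and 42.8 CPM in WT (log2 0.67, SE 0.25). The other markers tested did not rise with these: Sox1, Pax6 and Tubb3 had log2 changes of 0.02, -0.02 and -0.02, and Olig2 had -0.33. Of the 6 tested, 3 changed upward and 3 downward, with a median of -0.0004. The part of these markers in the Gsx1 value was not tested. Passing through the K3R3 value also holds for Zic1 and, among the members, for Dlx3, Hoxa10, Cdx2, Lhx9, Hoxb8, Hoxa4 and Hoxa2. Without the 8 members of this kind, 2 of 38 members were called and the median log2 change was 0.51. With a WT mean of at least 0.5 CPM, 233 of 13475 genes and 135 of 1507 bivalent genes were called higher. In the GENCODE annotation no exon of Gsx1, Hoxd13 or Esx1 overlaps another gene. Exons of another gene overlap 18 members on the opposite strand and 7 on the same strand. The strand setting of the counting was not given, so for those members the reads of both genes cannot be told apart.

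Short of the threshold, 13 other members had an unadjusted edgeR p under 0.05, all with higher K3R3 values, which with the called genes makes 16 of 46 (34.8%). The share was 7.9% over all genes and 31.6% over bivalent genes, so here too the members stood near their class. Of the 16, Gsx1, Dlx3, Hoxa10 and Cdx2 passed the filter through their K3R3 values. With lower K3R3 values there were 0 members, against 3.33% of all genes and 1.5% of bivalent genes. Dlx3, a distal-less gene of placenta and skin, had 1.81 CPM in K3R3 and 0.381 and 0.201 CPM in WT (log2 2.63, SE 0.86; adjusted p = 0.0663 by edgeR). By size alone, 3 of 35 members lay at least 2-fold above both WT libraries after adding 1 CPM to each value (8.57%), namely Esx1, Hoxd13 and Hoxa10, and 0 lay as far below. The share higher was 2.1% over all genes and 11.9% over bivalent genes, counting genes with 1 CPM or more on average, and the share lower was 0.172% and 0.363%. Hoxa10 reached that 1 CPM through its K3R3 value, with a mean of 1.08 CPM but a WT mean of 0.445 CPM. In the authors' deposited table an unadjusted p under 0.05 with a higher K3R3 value was given for 6 of the 69 members (8.7%), namely Esx1, Hoxd13, Gsx1, Six6, Hoxa10 and Dlx3, against 3.67% of all genes and 15.2% of bivalent genes. With a lower K3R3 value the authors' deposited table had 0 members, against 1.19% of all genes and 0.609% of bivalent genes.

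**Figure D2:**
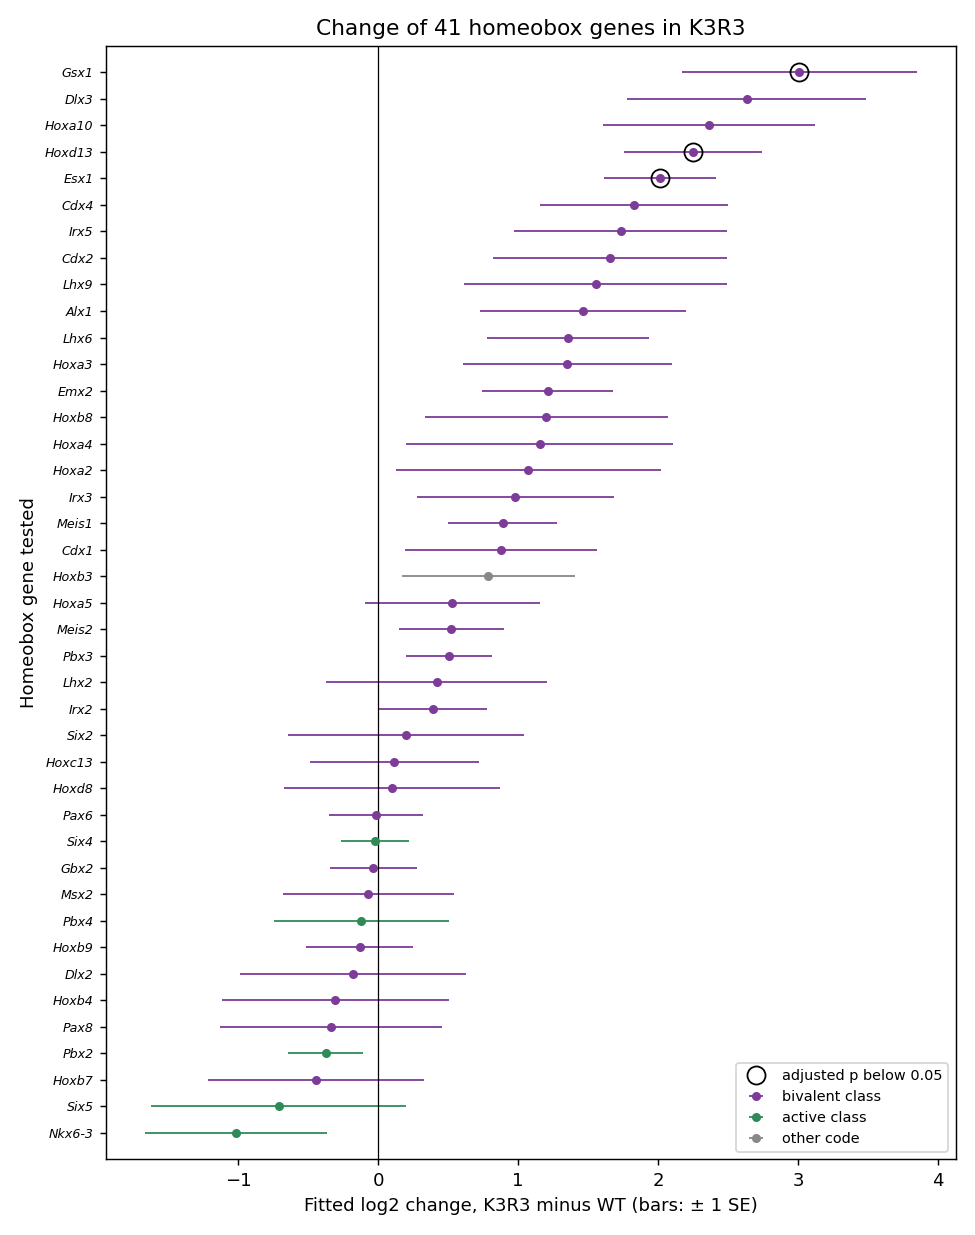
Fitted log2 change, K3R3 minus WT, of 41 of the homeobox genes tested, with bars of 1 SE either side and colours for the class code. Circles mark Gsx1, Hoxd13 and Esx1, the genes past the adjusted threshold; values run from 3.01 for Gsx1 down to -1.02 for Nkx6-3, and 28 of the 41 lie above 0. Library totals implied by RPKM shift all genes upward and turn Six4, Gbx2 and Pax6 above 0; other plotted genes near 0 were not listed under that scaling.

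The median log2 change of the 46 members was 0.81, beside -0.01 over all genes and 0.65 over bivalent genes. The 39 bivalent members had a median of 0.89, and the 6 active members tested had a median of -0.25, with 1 above 0. The 8 genes that passed the filter through K3R3 are all bivalent, and the 31 bivalent members with a WT mean of at least 0.5 CPM had a median of 0.53, beside 0.56 for bivalent genes as a whole under the same filter. By level, the median was -0.02 for 7 members with 10 CPM or more and 0.89 for 14 members with 2 to 10 CPM. It was 0.98 for 25 members with 0.5 to 2 CPM, but 0.42 for the 17 of these that passed on their WT level. Bivalent genes had 0.21, 0.68 and 1.05 in these ranges, the last 0.84 on WT level. Library totals implied by RPKM in place of TMM scaling moved the median of all genes to 0.11 and that of the members to 0.93.

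The WT libraries differed from each other in these genes. WT replicate 2 exceeded WT replicate 1 in 46 of 69 members (66.7%), against 51.5% of bivalent genes and 50.3% of all genes. Among the 46 members tested it did so in 38. In log2 CPM with a prior count of 1, the median member stood 0.40 higher in WT replicate 2 than in replicate 1, whereas the medians of bivalent genes and of all genes were 0.03 and 0.00. The median K3R3 member was 1.03 above WT replicate 1 and 0.57 above WT replicate 2 over all 69 members. Over the 46 tested members the difference was 1.03 and 0.35, and the WT libraries differed by 0.47. For 24 of those 46 the gap between the WT libraries was wider than the gap between K3R3 and WT replicate 2 (52.2%). With genes under the filter included, this held for 32 of 69 members (46.4%), beside 50.5% of all genes and 34.4% of bivalent genes. The order K3R3 above WT replicate 2 above WT replicate 1 was found in 31 of 69 members (44.9%), against 40.4% of bivalent genes and 19.8% of all genes. K3R3 lay above both WT libraries in 48 members (69.6%), against 72.6% of bivalent and 35.3% of all genes, and below both in 8 (11.6%), against 10.3% and 33.2%.

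**Figure D3:**
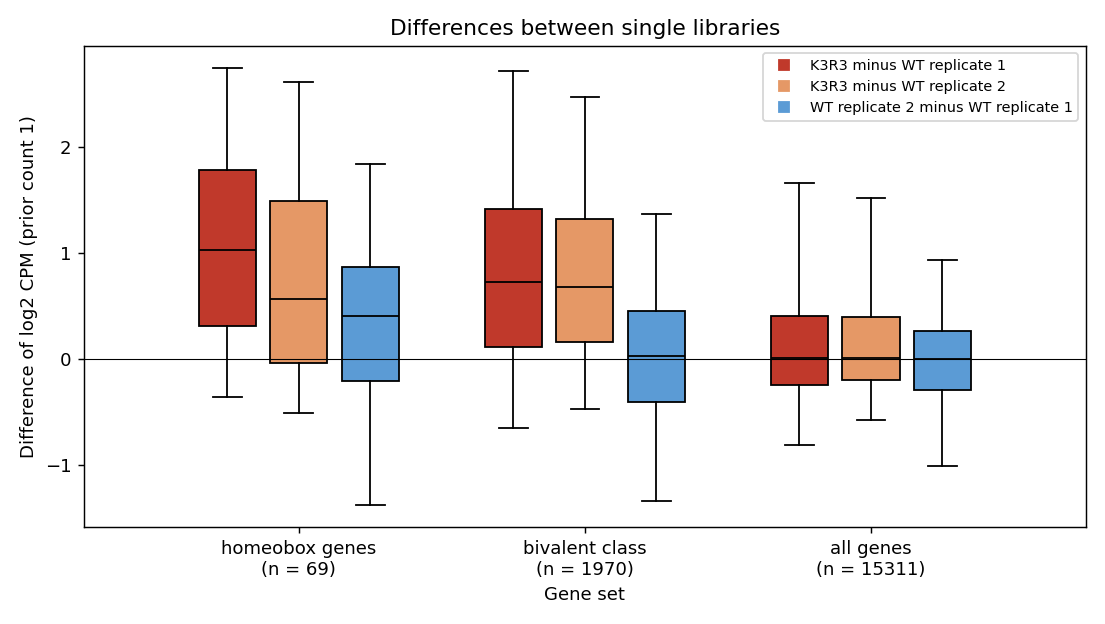
Differences of log2 CPM (prior count 1) between pairs of single libraries for the 69 homeobox genes, the 1970 bivalent genes and all 15311 genes; boxes show quartiles with the median, whiskers the 5th and 95th percentile. The homeobox medians were 1.03, 0.57 and 0.40, and the median for WT replicate 2 minus WT replicate 1 lies above that of either other set.

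Among Hox genes 22 of 39 were analysed, with 9 of 11 in HoxA, 9 of 10 in HoxB, 1 of 9 in HoxC and 3 of 9 in HoxD. Of 14 tested, Hoxd13 rose and 0 fell, beside 2.02% of all genes and 10.5% of bivalent genes called higher. The clusters differed in how the libraries lined up. The 9 HoxA genes summed to 20.5 CPM in K3R3 and to 6.47 and 13.5 CPM in WT replicates 1 and 2. The 9 HoxB genes summed to 14.9 CPM in K3R3 and to 13.9 and 14.2 CPM in WT. Hoxb9 made up most of these sums, and of the 9 genes 5 stood above both WT libraries and 3 below both. Among bivalent genes 72.6% stood above both and 10.3% below both, and among all genes 35.3% and 33.2%. The 3 HoxD genes summed to 8.80 CPM in K3R3 and to 2.14 and 3.42 CPM in WT. Hoxd13 made up most of the sum in K3R3 and in WT replicate 2, but not in WT replicate 1, where it had 0.951 CPM.

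Within HoxA, 8 of 9 genes were highest in K3R3, beside 72.6% of bivalent and 35.3% of all genes. In WT replicate 2, 7 of 9 were higher than in replicate 1, beside 51.5% of bivalent and 50.3% of all genes. Hoxa3, a hindbrain and pharyngeal arch gene, had 48 counts in K3R3 and 6 and 28 in WT (log2 1.35, SE 0.75). Hoxa2 and Hoxa4 had 21 counts each in K3R3, with 2 and 16 counts of Hoxa2 and 2 and 15 of Hoxa4 in WT. Both sat just above the filter, with means of 0.515 and 0.502 CPM. As ratios to the pooled WT libraries they stood at 2.05 (95% counting interval 1.04 to 4.09) for Hoxa2 and 2.18 (1.09 to 4.39) for Hoxa4. Hoxa10, a posterior gene of uterus and limb, stood well above both WT libraries. It had 2.34 CPM in K3R3 and 0.285 and 0.604 CPM in WT (log2 2.36, SE 0.76; adjusted p = 0.0618 by edgeR), with 2.87 and 1.88 against each WT library alone. Hoxa2, Hoxa3 and Hoxa4 are among the members with an overlapping gene.

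Within HoxB, Hoxb9 was the most abundant, and per length it was the highest of the Hox genes by mean, with 2.10 RPKM in K3R3 and 2.08 and 2.15 RPKM in WT. In CPM it stood at 8.03 in K3R3 and 8.71 and 8.90 in WT (log2 -0.13, SE 0.38). Hoxb7 had 0.960 CPM in K3R3 and 1.28 and 1.33 CPM in WT, and Hoxb4 had 0.883 CPM in K3R3 and 1.14 and 1.05 CPM in WT. In CPM all 3 were lowest in K3R3, which for Hoxb9 does not hold in RPKM, and 0 of them passed the test. Hoxb8 had 1.11 CPM in K3R3 and 0.523 and 0.443 CPM in WT, and Hoxb3 had 2.65 CPM in K3R3 and 1.28 and 1.77 CPM in WT. Those 2 genes stood above both WT libraries, also without a call. Hoxc13, the HoxC gene analysed, lay between the WT values with 2.23 CPM in K3R3 and 1.19 and 2.90 CPM in WT.

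By paralog number, K3R3 values stood above both WT libraries in 6 of 6 anterior genes (groups 1 to 3), 5 of 9 central genes (groups 4 to 8) and 4 of 7 posterior genes (groups 9 to 13), beside 72.6% of bivalent and 35.3% of all genes. Among the anterior genes Hoxb1, with 5 counts in K3R3 and 1 and 4 in WT, is too low to be ordered. The sums were 16.8 CPM in K3R3 and 5.80 and 11.5 CPM in WT for anterior genes, 8.57 against 5.85 and 7.37 CPM for central genes and 21.1 against 12.04 and 15.1 CPM for posterior genes. Fibroblasts keep Hox expression from their site of origin, and these ES cells had been on feeder fibroblasts before the last passage. Of 24 fibroblast markers listed 21 were in the table, with a summed level of 443 CPM in K3R3 against 508.3 and 424 CPM in WT. Without Vim, which ES cells also express, the sum was 278.5 CPM in K3R3 against 262.3 and 236.2 CPM in WT, above both. Of the 21 markers 11 stood above both WT libraries, beside 35.3% of all genes, 2 stood below both, and 1 (Thy1) rose. Thy1 is of the bivalent class, of which 10.5% were called higher, beside 2.02% of all genes. The part of fibroblast RNA in the Hox values was not tested, and in bulk RNA fewer cells of a type and less RNA per cell cannot be told apart.

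**Figure D4:**
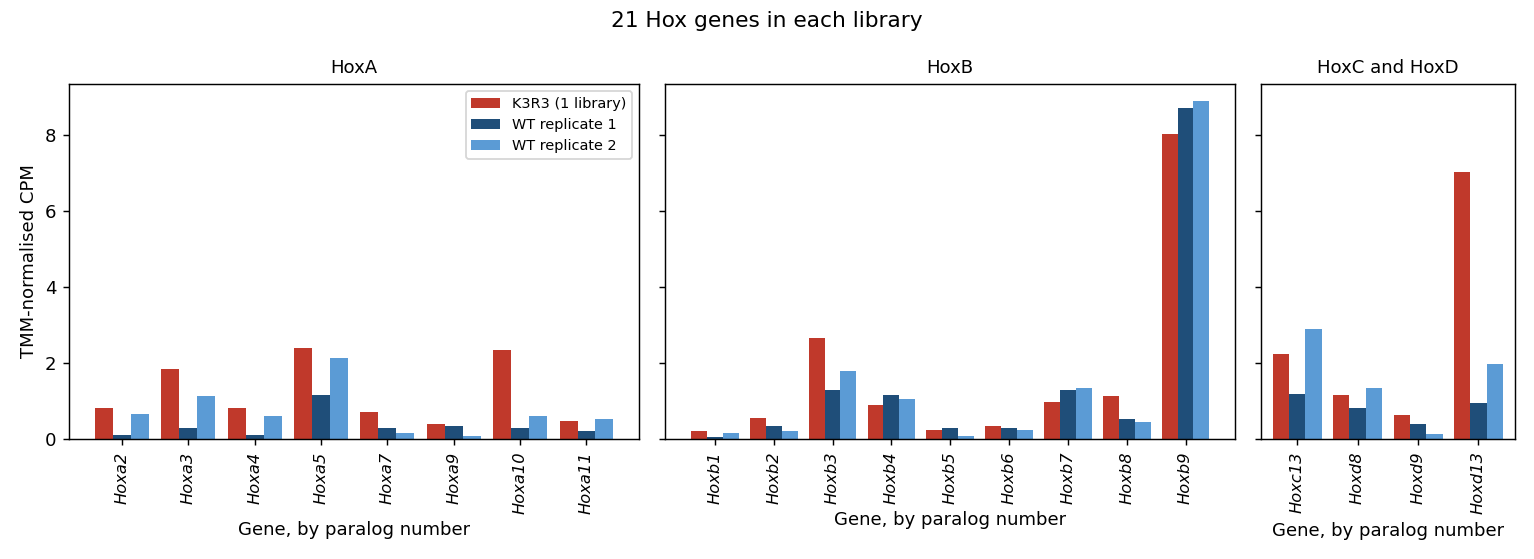
TMM-normalised CPM of 21 Hox genes in K3R3 and in WT replicates 1 and 2, in order of paralog number within HoxA, HoxB and the HoxC and HoxD genes analysed. Hoxa10 and Hoxd13 stand out in K3R3 with 2.34 and 7.03 CPM, whereas Hoxb9 is level at 8.03 CPM in K3R3 and 8.71 and 8.90 CPM in WT.

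The 3 Cdx genes, upstream activators of Hox genes in the posterior embryo, were all highest in K3R3, and 0 of 3 were called. For comparison, 72.6% of bivalent and 35.3% of all genes were highest in K3R3. Cdx4 had 2.84 CPM in K3R3 and 0.190 and 1.37 CPM in WT (log2 1.83, SE 0.67; adjusted p = 0.137 by edgeR). Its WT libraries lay farther apart, by 2.60 log2 units, than K3R3 lay from WT replicate 2, by 1.03. Cdx2, which also specifies trophectoderm, had 1.46 CPM in K3R3 and 0.476 and 0.443 CPM in WT (log2 1.66, SE 0.84). Cdx2 had 38 counts in K3R3 and 10 and 11 in WT, and it passed the filter through its K3R3 value. The closeness of 2 such low WT counts is no measure of spread. Cdx1 had 2.07 CPM in K3R3 and 0.999 and 1.25 CPM in WT.

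Of the TALE cofactors 6 were tested and 0 were called. Pbx3 had 27.3 CPM in K3R3 and 16.6 and 21.9 CPM in WT (log2 0.50, SE 0.31). It was highest in K3R3, by less than 1 log2 unit. Pbx2 had 37.3 CPM in K3R3 and 46.4 and 50.3 CPM in WT (log2 -0.37, SE 0.27), below both WT libraries. Meis1, a partner of Hox proteins in blood stem cells and limb, had 10.4 CPM in K3R3 and 5.23 and 5.96 CPM in WT (log2 0.89, SE 0.39; adjusted p = 0.285 by edgeR). Meis2 had 10.5 CPM in K3R3 and 5.80 and 8.82 CPM in WT. Of the cofactors tested, Meis1 combined a higher K3R3 value with a WT pair that differed by 0.19 log2 units. Exons of other genes overlap Meis1 on both strands. Meis3, just under the filter with a mean of 0.454 CPM, had 24 counts in K3R3 and 5 in each WT library.

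The Iroquois genes, which pattern neural plate and heart, had 3 members tested and 0 called. Each of the 3 was highest in K3R3, beside 72.6% of bivalent and 35.3% of all genes. Irx1 and Irx4 were under the filter, with 4 counts of Irx1 in K3R3 and 1 and 3 in WT. Irx5 had 1.96 CPM in K3R3 and 0.523 and 0.645 CPM in WT (log2 1.73, SE 0.76; adjusted p = 0.293 by edgeR). Irx2 had 9.10 CPM in K3R3 and 6.09 and 7.77 CPM in WT (log2 0.39, SE 0.39). Irx3 lay between these in its change, with 1.96 CPM in K3R3 and 0.761 and 1.21 CPM in WT.

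Of the sine oculis family 4 members were tested and 0 were called. Six4 stood at 58.6 CPM in K3R3 and 56.0 and 62.8 CPM in WT, between the WT values (log2 -0.02, SE 0.24, and 0.10 with implied totals). Six5 had 0.538 CPM in K3R3 and 0.714 and 1.05 CPM in WT (log2 -0.71, SE 0.91). Six6, an eye and pituitary factor, fell under the filter and is named after its values were seen. It had 31 counts in K3R3 and 1 and 2 in WT, or 18.2 times the pooled WT level (95% interval for counting error 5.68 to 93.0). With no filter on low counts, Six6 passed the test (log2 4.09; adjusted p = 0.0108 by edgeR). An exon of 4930447C04Rik overlaps Six6 on the opposite strand. As the strand setting was not given, reads of the overlapping gene cannot be told apart from those of Six6.

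The 4 Pax genes showed 0 members above both WT libraries, beside 72.6% of bivalent and 35.3% of all genes. Pax6, the eye and forebrain regulator, had 14.9 CPM in K3R3 and 12.5 and 17.6 CPM in WT, between the WT libraries (log2 -0.02, SE 0.34, and 0.11 with implied totals). Pax8, a thyroid and kidney factor, had 0.922 CPM in K3R3 and 0.999 and 1.33 CPM in WT (log2 -0.34, SE 0.79). Pax3 had 5 counts in K3R3 and 11 and 4 in WT, and Pax9 had 4 against 2 and 5. These counts are too low to order the libraries.

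LIM homeodomain genes were represented by Lhx2, Lhx6, Lhx8 and Lhx9, and 0 of 3 tested were called. Lhx6, a factor of forebrain interneurons, had 3.69 CPM in K3R3 and 1.38 and 1.49 CPM in WT (log2 1.36, SE 0.58; adjusted p = 0.264 by edgeR). The WT values of Lhx6 were close, and K3R3 exceeded both by at least 1.28 log2 units. Lhx9, a gonad and brain factor, had 25 counts in K3R3 and 5 and 10 in WT (log2 1.55, SE 0.94). Lhx2 had 1.19 CPM in K3R3 and 0.428 and 1.33 CPM in WT, inside the WT range.

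Of the NK genes, Nkx6-3, of gastric epithelium and classed as active, had the lowest fitted change of all members. It stood at 1.23 CPM in K3R3 and 2.90 and 2.09 CPM in WT (log2 -1.02, SE 0.65; adjusted p = 0.680 by edgeR), below both WT libraries without a call. Dlx2, a forebrain and branchial arch gene, was set by the WT pair, with 24 counts in K3R3 and 6 and 44 in WT. Dlx1, its cluster neighbour, had 20 counts in K3R3 and 10 and 6 in WT and lay just under the filter at a mean of 0.495 CPM. Msx2 was level at 2.04 CPM in K3R3 and 2.19 and 2.09 CPM in WT.

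The 4 paired-like genes were all highest in K3R3, beside 72.6% of bivalent and 35.3% of all genes. Beside Esx1, Alx1, of cranial mesenchyme, had 2.00 CPM in K3R3 and 0.761 and 0.685 CPM in WT (log2 1.46, SE 0.74; adjusted p = 0.432 by edgeR). Emx2, a cortex and urogenital factor, had 6.07 CPM in K3R3 and 1.62 and 3.59 CPM in WT (log2 1.21, SE 0.47; adjusted p = 0.176 by edgeR). Gbx2 had 21.8 CPM in K3R3 and 18.8 and 25.9 CPM in WT, between the WT values (log2 -0.04, SE 0.31, and 0.086 with implied totals). Barx1, a stomach and tooth factor, had 12 counts in K3R3 and 2 and 1 in WT, or 7.04 times (interval 1.90 to 38.9).

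Of the 23 members under the filter, 22 were classed as bivalent and 18 stood above both WT libraries, with 0 below both. Among bivalent genes under the filter 213 of 299 stood above both, and among all genes under it 718 of 1482. The members' counts summed to 264 in K3R3 and to 103 and 85 in WT replicates 1 and 2, or 10.1 CPM against 4.90 and 3.42 CPM. The K3R3 sum was above both WT sums, and here WT replicate 1 was above replicate 2, the reverse of the order in the members tested. Among all genes under the filter, the sums were 510 CPM in K3R3 and 391.5 and 342 CPM in WT, and among bivalent ones 138 CPM against 70.0 and 63.6 CPM.

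Homeobox genes outside the rule were read from a list of 99 genes, of which 60 were in the table and 51 tested. Mkx, a tendon factor, rose and Otx2 fell, beside 2.02% of all genes called higher and 0.542% called lower, so the higher call lay at the share of all genes. The median was 0.33. Mkx had 10.5 CPM in K3R3 and 3.90 and 4.39 CPM in WT (log2 1.34, SE 0.40; adjusted p = 0.0356 by edgeR). Otx2, the forebrain and epiblast factor, had 5.42 CPM in K3R3 and 23.3 and 16.2 CPM in WT (log2 -1.87, SE 0.37; adjusted p = 0.000166 by edgeR). Highest per length in that list were Pou5f1, Tgif1 and Adnp, with means of 182, 76.3 and 45.2 RPKM, and 0 of these were called.

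Retinoic acid signalling, which induces Hox genes in ES cells, was read from a list of 20 genes, of which 18 were in the table and 17 tested. Of these 4 rose and 0 fell, beside 2.02% of all genes and 10.5% of bivalent genes called higher, and the list median was 0.85. Rxrg, Rbp4 and Cyp26a1 passed the filter through their K3R3 values, and among the 14 genes with a WT mean of at least 0.5 CPM 2 rose and the median was 0.51. At that WT level 233 of 13475 genes and 135 of 1507 bivalent genes were called higher. Crabp1, a cytosolic retinoic acid carrier, had 12.3 CPM in K3R3 and 2.95 and 3.91 CPM in WT (log2 1.83, SE 0.40; adjusted p = 0.000711 by edgeR). Stra8, a retinoic acid target of germ cells, had 33.6 CPM in K3R3 and 8.23 and 13.9 CPM in WT (log2 1.60, SE 0.31; adjusted p = 8.79e-05 by edgeR). Rxrg, a retinoid receptor, had 52 counts in K3R3 and 4 and 6 in WT (log2 3.17, SE 0.87; adjusted p = 0.0173 by edgeR). Rbp4, the plasma retinol carrier, had 48 counts in K3R3 and 3 and 4 in WT, or 12.1 times the pooled WT level (interval 5.43 to 31.6; adjusted p = 0.0102 by edgeR). Of the 4 calls 3 were of bivalent genes, and Stra8 was of the active class. The most abundant members per length were Rarg, Stra8 and Crabp2. Rarg, a retinoic acid receptor, had 71.0 CPM in K3R3 and 79.0 and 60.9 CPM in WT, and Crabp2 had 8.83 CPM in K3R3 and 9.66 and 8.30 CPM in WT. Rarb and Dhrs3, direct retinoic acid targets without a call, are named after their values were seen. They had the order K3R3, WT replicate 2, WT replicate 1 seen in most HoxA genes. That order was found in 40.4% of bivalent and 19.8% of all genes. The list as a whole did not show it, with sums of 199 CPM in K3R3 and 157 and 148 CPM in WT replicates 1 and 2. Its median for WT replicate 2 minus replicate 1 was -0.03 log2 units over 18 genes. Rarb had 4.15 CPM in K3R3 and 0.761 and 3.79 CPM in WT, and Dhrs3 had 3.27 CPM in K3R3 and 0.904 and 2.14 CPM in WT.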

How the data were processed

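The deposited table gives raw counts for each gene; HTSeq 0.5.4p1 and build mm9 are named in the submitters' processing notes. The sources used here do not name the aligner, annotation or strand setting. RPKM values were deposited beside the counts and were used to compare levels between genes. A linear fold ratio, its log2 value and an unadjusted p-value were deposited by the authors, with DESeq 1.10.1 named in the submitters' processing notes. By the values the deposited fold and log2 run WT over K3R3: for 100% of 1300 genes that changed over 2-fold in the fit, the sign was opposite to K3R3 minus WT, so directions were taken from the counts. RNA was TRIzol-extracted, oligo(dT)-selected and made into strand-specific libraries, per the labels' protocols.

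Counts were tested with edgeR 4.0.16 in R 4.3.3: TMM factors, a mean filter of 0.5 CPM (13829 genes), quasi-likelihood test, two-sided, Benjamini-Hochberg over all genes at 0.05. There was 1 residual degree of freedom and the prior degrees of freedom came out infinite; p-values rest on the dispersion trend. The SE is the log2 change divided by the root of the F statistic. Single libraries were compared on log2 CPM, prior count 1. Ratios carry exact conditional 95% intervals for counting error alone; K3R3 has no replicate. DESeq2 1.42.0, other scalings, filters and tests, and leaving out each WT library were tried, and the fit was tested on simulated data. Named members are those called, the 10 highest by mean RPKM, the 12 highest and 6 lowest changes, members 2-fold from both WT libraries and the 2 nearest the filter on each side; others serve as examples of a family. Members and lists were chosen with earlier results of these data known. GENCODE M21 and RefSeq (GRCm38.p6) gave overlaps and sequences, not positions of the counts. Some members are not reported here by name and are left out of the plots of single genes; they remain in the tests, counts, medians and sums.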

Additional observations from a re-analysis of the deposited data

How the results depend on the processing

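The number of homeobox members called was 3 in the analysis reported, 5 with library totals implied by RPKM and 5 with edgeR's likelihood ratio test, where Hoxa10 and Dlx3 joined, and 1 (Esx1) with DESeq2. It was 4 without the low-count filter, 3 with DESeq2-type size factors, 2 with a minimum mean of 2 CPM, and 2 among members with a WT mean of at least 0.5 CPM, a setting chosen after seeing the data. Under that last setting 233 of 13475 genes and 135 of 1507 bivalent genes were called higher. Other homeobox genes gave 2 calls, against 4 with implied totals, 4 with the likelihood ratio test and 1 with DESeq2. Retinoic acid genes gave 4 calls, against 1 with DESeq2 and 2 with a minimum of 2 CPM, where fewer genes were tested. Over all genes 355 were called (280 higher, 75 lower), against 59 with DESeq2 (33 higher, 26 lower) and 516 with implied totals (466 higher, 50 lower). The cause of the other differences was not tested. The members' median change was 0.81, between 0.52 and 0.93 under the other fits, 0.51 among members with a WT mean of at least 0.5 CPM, and 0.35 to 1.03 when 1 WT library was left out, the lower value without WT replicate 1. Implied totals turned the uncalled changes of Six4, Gbx2 and Pax6 to 0.10, 0.086 and 0.11. Leaving out a WT library left no residual degrees of freedom, so calls could not be counted. No paired analysis was possible because K3R3 has 1 library without a replicate number. Members with a few counts are limited by depth, as their intervals show.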
